A study of Mus musculus with 12 samples.

Results

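Cadherins are calcium-dependent adhesion molecules that join neighbouring cells, and 9 of them were followed across every group of the series: Cdh1, Cdh2, Cdh3, Cdh4, Cdh5, Cdh6, Cdh11, Cdh13 and Cdh16. They were chosen by name, and their probes were found through the RefSeq accession that the array gives for each probe. All 9 genes had a probe that passed the detection filter, among 15226 genes tested. The samples were glomeruli, the filtering tufts of the kidney, and primary cultures of podocytes, the epithelial cells that cover the glomerular capillaries. All 6 groups, controls included, came from mice with an inducible Cre and loxP-flanked (flox/flox) Foxc1 and Foxc2, each group holding 2 samples with 1 array each. Control glomeruli came from mice given no agent, and treated glomeruli from mice injected intraperitoneally with tamoxifen at 8 weeks of age, once a day for 3 days, the tufts being collected on day 7. The cultures were grown out of isolated glomeruli of adult mice and were mock-treated or treated with the active form of tamoxifen for 4 or 7 days. The labels name no promoter or cell type that drives the Cre, and each treated sample had the drug together with any recombination, so those cannot be told apart. The labels name separate mice for the glomeruli but do not say whether the numbered cultures were separate, so p-values may measure a partly technical spread.

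Classical cadherins span the membrane once, bind cadherins of the next cell with their outer domains and hold catenins on the inner side, which link the junction to actin. Type I members (Cdh1, or E-cadherin; Cdh2, or N-cadherin; Cdh3, or P-cadherin; Cdh4, or R-cadherin) and type II members (Cdh5, or VE-cadherin; Cdh6, or K-cadherin; Cdh11, or OB-cadherin) differ in their adhesive outer domain. The name classical covers Cdh13 and Cdh16 only loosely, since T-cadherin (Cdh13) is anchored by a lipid and has no inner tail, and kidney-specific cadherin (Cdh16) has a short tail without a catenin site. In the kidney, E-cadherin and Cdh16 are known from tubule epithelium and VE-cadherin from endothelium. P-cadherin has been described at the podocyte slit diaphragm, and Cdh6 in the early nephron epithelium.

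Values are log2 of the spot signal minus the 75th percentile of that array, so 0 is the level of a rather bright spot and 1 unit is a doubling. Signals were compared between samples within a probe and never between probes. Across the 12 arrays, 57.9% to 63.4% of spots were well above background, and replicate arrays correlated at 0.983 to 0.990. Both targeted genes read lower in every treated sample than in its controls. Foxc2 was 2.10 and 2.24 in control glomeruli against -1.12 and -0.19 after tamoxifen, and Foxc1 was 2.92 and 2.81 against 0.92 and 1.09, of which the Foxc2 fall passed the test (adjusted p = 0.037 by limma) and the Foxc1 difference did not (adjusted p = 0.62). In the treated cultures Foxc2 was not well above background on any array, and the Foxc1 values lay between -8.21 and -1.74, against 2.62 to 4.32 in the mock cultures. There Foxc2 passed on both days, and Foxc1 on neither day alone (adjusted p = 0.14 at day 4 and 0.057 at day 7 by limma). The Foxc1 tests, that in glomeruli included, take their spread from all 12 arrays. Its treated culture pairs lay wide apart (-5.78 and -1.74 at day 4, -8.21 and -3.26 at day 7), unlike its glomerular pairs. Each sample type or culture day had a slide of its own, so comparisons within a slide are the 3 tamoxifen comparisons, while slide and group cannot be told apart for culture against glomeruli or for culture time. With whole tissue or mixed cultures, fewer cells of a type and less RNA per cell cannot be told apart either.

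The 9 cadherins differed most between the sample types. In mock cultures, set against control glomeruli, Cdh2, Cdh3, Cdh6 and Cdh11 were higher and Cdh1, Cdh4, Cdh5, Cdh13 and Cdh16 lower. All 9 differences passed the test (limma on all 12 arrays, with p-values adjusted over all genes by Benjamini-Hochberg and a threshold of 0.05), with 4 of 9 higher and 5 of 9 lower. The background was large, since 63.6% of all genes passed, 37.6% higher and 26% lower. The median cadherin difference was -1.23 beside 0.17 for all genes.

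**Figure D1:**
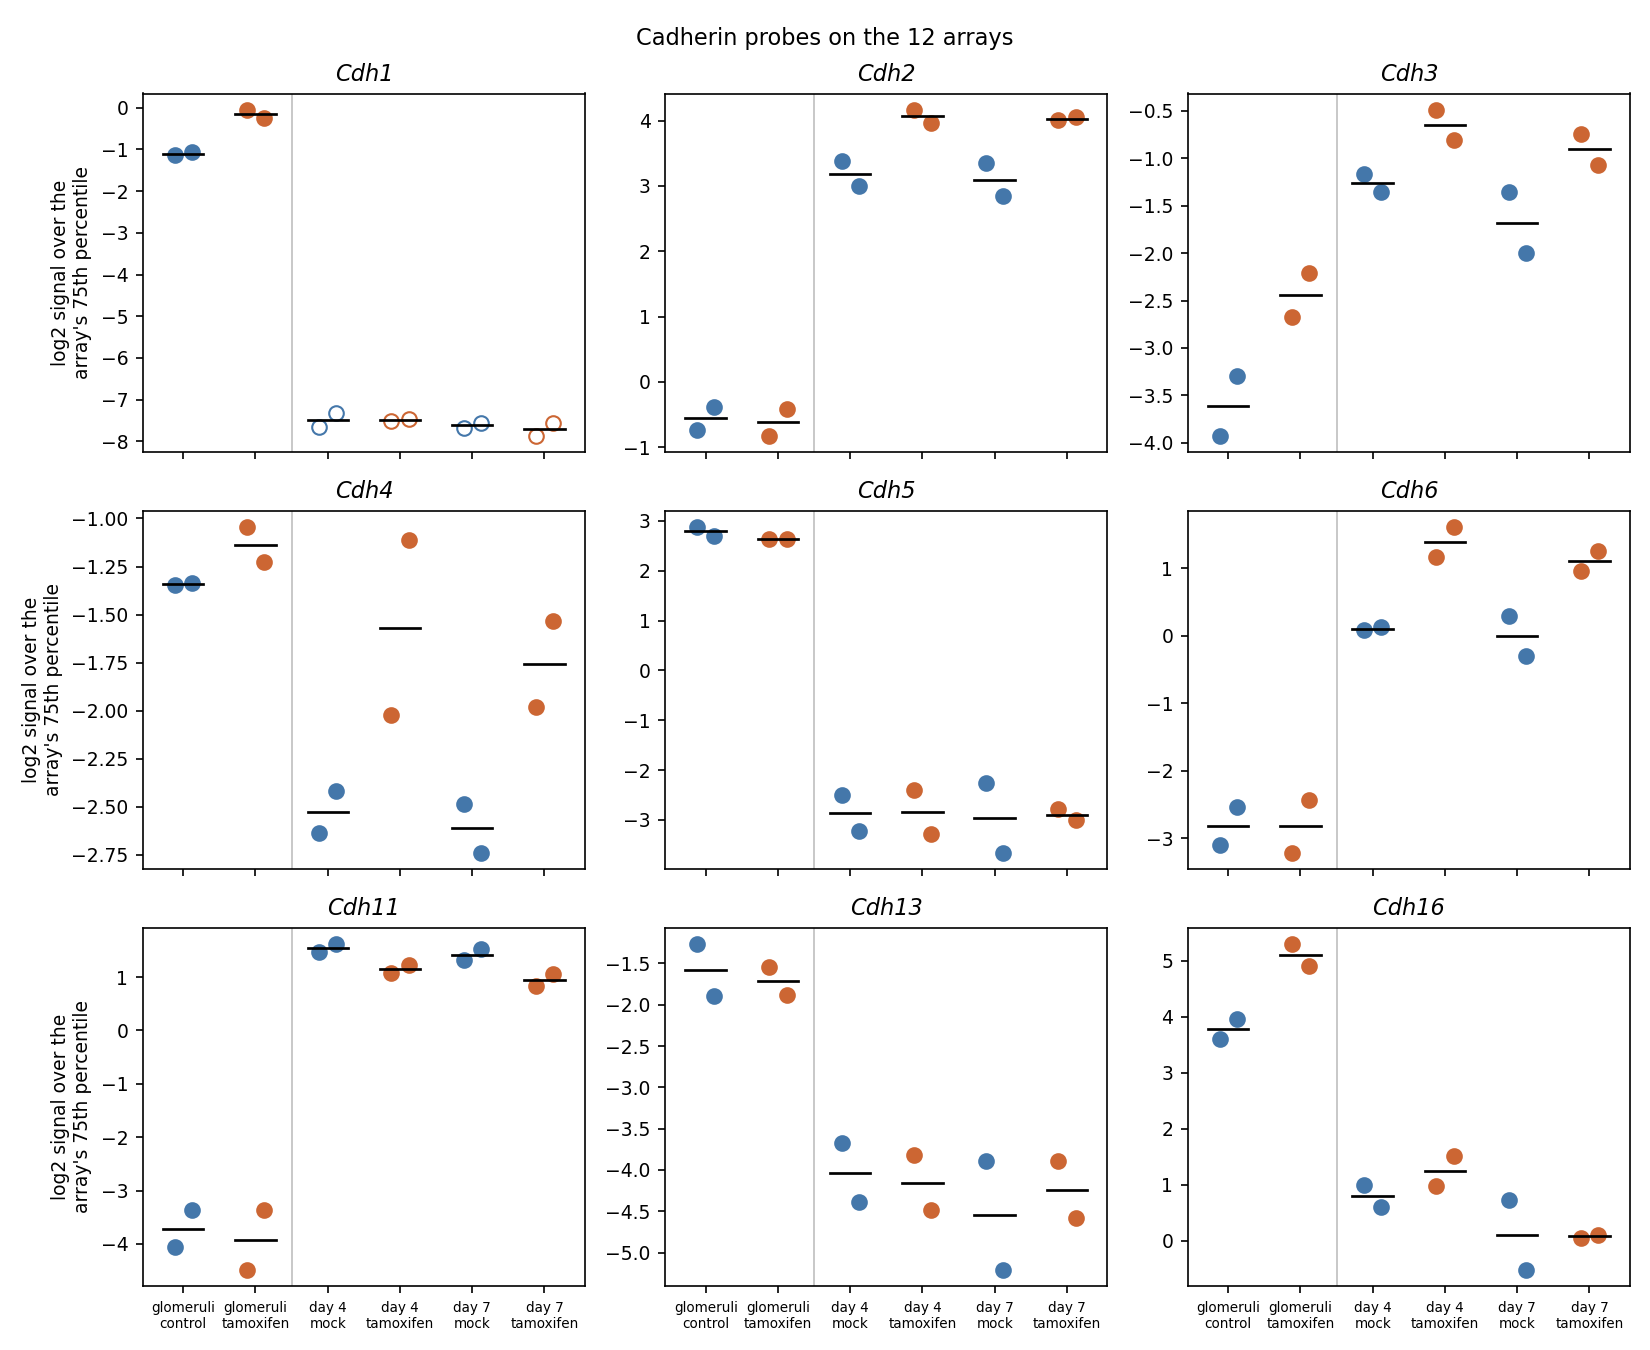
Signal of the 9 cadherins on each of the 12 arrays, as log2 over the array's 75th percentile, with one panel and its own axis range per gene, blue points for control or mock samples, orange for tamoxifen, open points for arrays not well above background, and bars for group means. The grey line separates glomeruli from cultures: Cdh1, Cdh5, Cdh13 and Cdh16 lie higher on the 4 glomerular arrays than on any of the 8 culture arrays, and Cdh2, Cdh3, Cdh6 and Cdh11 lie higher in the mock cultures than in control glomeruli.

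Among the type I cadherins, Cdh1, the main epithelial cadherin, went from detected to undetected. Its probe read -1.14 and -1.06 in control glomeruli and was not well above background on any of the 8 culture arrays, where the values ran from -7.86 to -7.31. The mock cultures were therefore at least 24.3-fold lower, a bound set by the dimmest signal that still counted as detected (adjusted p = 2.7e-08). This probe is printed as 10 spots, whose log2 SD was 0.0618 to 0.0886 on glomerular arrays and 0.194 to 0.556 on culture arrays, so the order of the culture values carries nothing. Cdh2, the cadherin of many mesenchymal and neural cells, ran the other way. It read -0.73 and -0.38 in control glomeruli, 3.38 and 2.99 in day 4 mock cultures and 3.34 and 2.85 in day 7 mock cultures. That was a rise of 3.70 (SE 0.20), or 13.0-fold, with adjusted p = 2.8e-06.

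Cdh3 was dim in control glomeruli, at -3.92 and -3.30, and stood at -1.16 and -1.35 in day 4 and -1.35 and -2.0 in day 7 mock cultures. The 4 mock cultures all lay above both control glomeruli, and the rise was 2.14 (SE 0.26, adjusted p = 0.00018), or 4.41-fold. Cdh4 moved least of the 9. Its control glomeruli both read -1.34, the day 4 mock cultures -2.64 and -2.42, and the day 7 mock cultures -2.48 and -2.74. The fall of 1.23 on the log2 scale (SE 0.25) had adjusted p = 0.003.

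The type II cadherins held both extremes among the probes measured on each side. Cdh5, which builds endothelial junctions, read 2.88 and 2.70 in control glomeruli against -2.49 and -3.23 at day 4 and -2.26 and -3.66 at day 7 in mock cultures, a 52.0-fold fall (-5.70, SE 0.41, adjusted p = 1.2e-05). The glomerular endothelial markers fell beside it: 10 of 10 were lower and called, with a median of -5.58. Their summed linear level, in units of the array's 75th percentile, was 236.7 and 280.3 in control glomeruli and 9.19 to 15.9 in mock cultures, where the receptors Tek and Tie1 were not well above background. The part of endothelial cell number in the Cdh5 value was not tested. Cdh5 itself stayed well above background in all 8 cultures.

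Cdh11, a cadherin of mesenchyme and bone-forming cells, rose most. It read -4.06 and -3.37 in control glomeruli, 1.47 and 1.62 in day 4 mock cultures and 1.31 and 1.52 in day 7 mock cultures, a 36.6-fold difference (5.19, SE 0.31, adjusted p = 4.7e-06). A second Cdh11 probe gave 3.69. Fibroblast markers had a median difference of 1.98, with 5 of 9 called higher and 3 called lower, and their summed level went from 19.6 and 35.4 in control glomeruli to between 71.1 and 148.8 in mock cultures. Their part in the Cdh11 value was not tested.

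Cdh6 was -3.10 and -2.54 in control glomeruli, 0.08 and 0.12 in day 4 mock cultures, and 0.29 and -0.31 in day 7 mock cultures, so each culture lay above each glomerular sample. The rise was 2.87 (SE 0.28), or 7.30-fold, with adjusted p = 6.6e-05. Cdh6 also had the largest rise with tamoxifen in culture as described further on, and it was the one member whose promoter was in the RefSeq table used here. The 250 bases before its start are shown to give the sequence context of that response. They lie at chr15:13173676-13173925 of GRCm38.p6, on the minus strand, and are printed 5′ to 3′ as RefSeq gives them.
Cdh6 promoter: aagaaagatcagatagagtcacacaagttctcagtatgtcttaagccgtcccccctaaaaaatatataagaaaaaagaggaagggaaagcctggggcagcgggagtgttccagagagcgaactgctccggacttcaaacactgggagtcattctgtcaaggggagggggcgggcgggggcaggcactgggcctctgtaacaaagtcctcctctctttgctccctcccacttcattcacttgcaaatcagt
The window was searched on both strands for CACCTG, an E-box core known to be bound by Snail and Zeb repressors, which reads CAGGTG on the other strand, and for TGTTTAC, a forkhead core, which reads GTAAACA on the other strand. Neither occurred, so no base is in capitals. In the 32851 promoter windows of the same length, CACCTG occurred in 8.83%, CAGGTG in 9.36%, TGTTTAC in 1.64% and GTAAACA in 1.55%. The absence says only that these letters are not in this stretch.

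Of the less typical cadherins, Cdh13 read -1.27 and -1.89 in control glomeruli and between -5.21 and -3.67 in the mock cultures, a fall of 2.71 (SE 0.43, adjusted p = 8e-04). T-cadherin, its product, is known from vessels. In each of the 4 culture groups replicate 1 was above replicate 2 for Cdh13, and the same was so for Cdh5. Cdh16 was bright in control glomeruli at 3.60 and 3.95, and read 1.00 and 0.61 at day 4 and 0.73 and -0.52 at day 7 in mock cultures. Its 10-fold fall (-3.32, SE 0.34, adjusted p = 7.8e-05) left it well above background on all 8 culture arrays. Of other tubule genes, 7 of the 9 loop, distal tubule and collecting duct markers tested, among them Umod and Slc12a1, were not well above background in any culture group, and the summed level of that list was 51.0 and 59.8 in control glomeruli and 0.178 to 0.358 in mock cultures. Aqp2, the collecting duct water channel, was still detected and fell by 2.12 on the log2 scale. Of the 10 proximal tubule markers, all called lower, 3 were well above background on both mock arrays at day 4 and 4 at day 7.

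**Figure D2:**
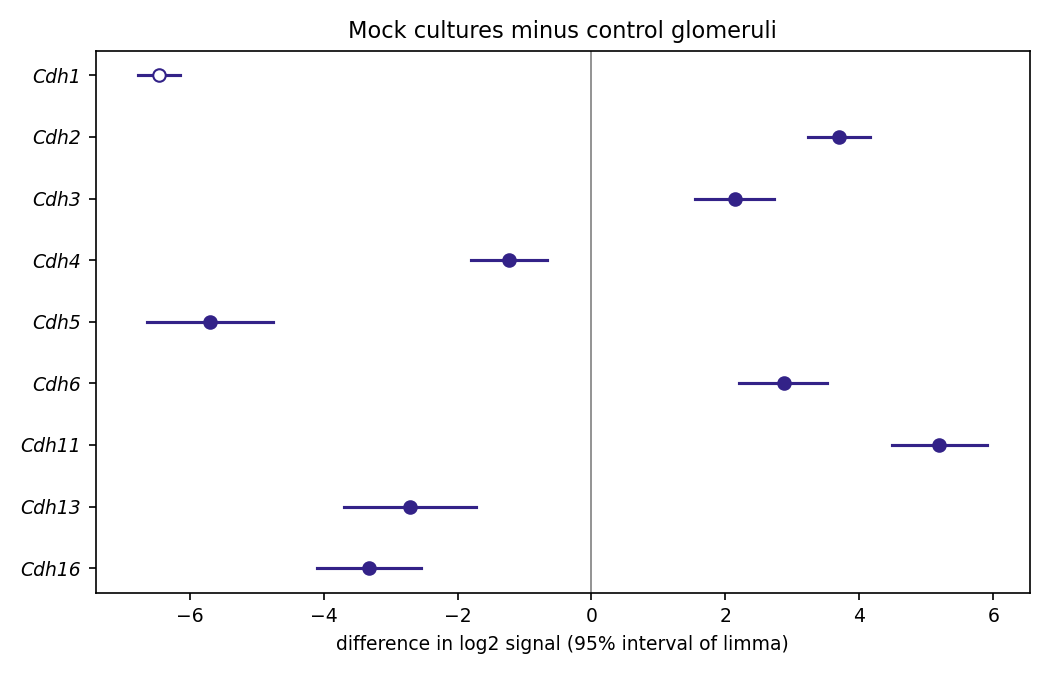
Difference in log2 signal between the 4 mock cultures and the 2 control glomerular samples for each cadherin, with the 95% interval of limma as a line; filled points passed the test, and the open point marks Cdh1, whose cultures were below background, so that its size is only bounded. The intervals of Cdh2, Cdh3, Cdh6 and Cdh11 lie above 0 and those of the other 5 below.

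In glomeruli, treated mice were set against controls, so each difference holds the drug together with any loss of Foxc1 and Foxc2. Cdh1 rose, and it was the one cadherin of 9 that passed, beside 2.62% of all genes (1.73% higher). It read -1.14 and -1.06 in controls and -0.05 and -0.25 in treated mice, with both treated samples above both controls. The rise was 0.95 (SE 0.16, 95% interval 0.59 to 1.32, adjusted p = 0.03 by limma), or 1.94-fold. This SE uses the spread of all 12 arrays, of which the 8 culture arrays were below background for Cdh1. Cdh3 went from -3.92 and -3.30 to -2.67 and -2.21, and Cdh16 from 3.60 and 3.95 to 5.30 and 4.90. Both had larger differences than Cdh1 and wider intervals, 1.17 (0.49 to 1.85, adjusted p = 0.083) for Cdh3 and 1.32 (0.42 to 2.22, adjusted p = 0.12) for Cdh16, and neither passed.

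The other 6 cadherins had differences between -0.21 and 0.21 by the probes used, with adjusted p from 0.76 to 1. Second detected probes gave 0.36 for Cdh2, 0.16 for Cdh4 and 0.06 for Cdh11, of which those of Cdh2 and Cdh11 had the other sign than the probe used. Cdh2 read -0.73 and -0.38 in controls and -0.82 and -0.42 in treated mice, and Cdh6 -3.10 and -2.54 against -3.21 and -2.43. Cdh5 read 2.88 and 2.70 against 2.63 and 2.64, a difference of -0.15 whose interval ran from -1.24 to 0.93, so a halving was within it. That interval takes its spread from all 12 arrays. The SD of Cdh5 was 0.13 and 0.01 in the glomerular groups and 0.16 to 0.99 in the culture groups. The remaining treated values were -1.04 and -1.23 for Cdh4, -4.49 and -3.36 for Cdh11, and -1.54 and -1.88 for Cdh13. Treated and control samples did not overlap for 4 cadherins that were higher (Cdh1, Cdh3, Cdh4 and Cdh16) and 1 that was lower (Cdh5), beside 19.8% and 28.1% of all genes. The median over the 9 was 0.00 beside -0.05 for all genes.

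Markers of tubule were higher in the treated samples too. Each of the 10 proximal tubule markers read higher in both treated mice than in both controls (median difference 1.64), and 1 of them, the transporter Slc22a6, was called. All 10 had an unadjusted p under 0.05 by limma, beside 18.3% of all genes. Of all genes, 19.8% lay wholly higher and 1.73% were called higher. The summed level of the proximal tubule list was 31.5 and 34.1 in the controls and 126.6 and 63.6 in the treated mice. Loop, distal tubule and collecting duct markers were higher by mean for 8 of 9 (median 0.77), with Slc12a1 and Kcnj1 called and summed levels of 51.0 and 59.8 against 70.7 and 82.4. The part of tubule RNA in the Cdh1, Cdh3 and Cdh16 values was not tested. Podocyte markers were lower by mean for 9 of 10 (median -0.52, Synpo called), and endothelial markers for 10 of 10 (median -0.35, 0 called by limma, 1 at an unadjusted p under 0.05). Red blood cell markers had the largest shift, with a median of -4.55, 4 of 7 called lower, and summed levels of 39.8 to 88.9 in controls and 0.912 to 7.52 in treated mice. Mesangial and mural markers were higher by mean for 10 of 10 (median 0.41, Acta2 called), and immune markers lower for 9 of 10 (median -0.70, 0 called by limma, 2 at an unadjusted p under 0.05). Of all genes, 2.62% were called and 18.3% had an unadjusted p under 0.05, so the endothelial and immune counts are near or below the background. Parietal epithelial markers were higher by mean for 7 of 10 (median 0.38), with 0 called by limma. At an unadjusted p under 0.05 there were 4 of those 10, 3 of them higher, beside the same 18.3% of all genes. The part of these lists in the cadherin values was not tested either.

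**Figure D3:**
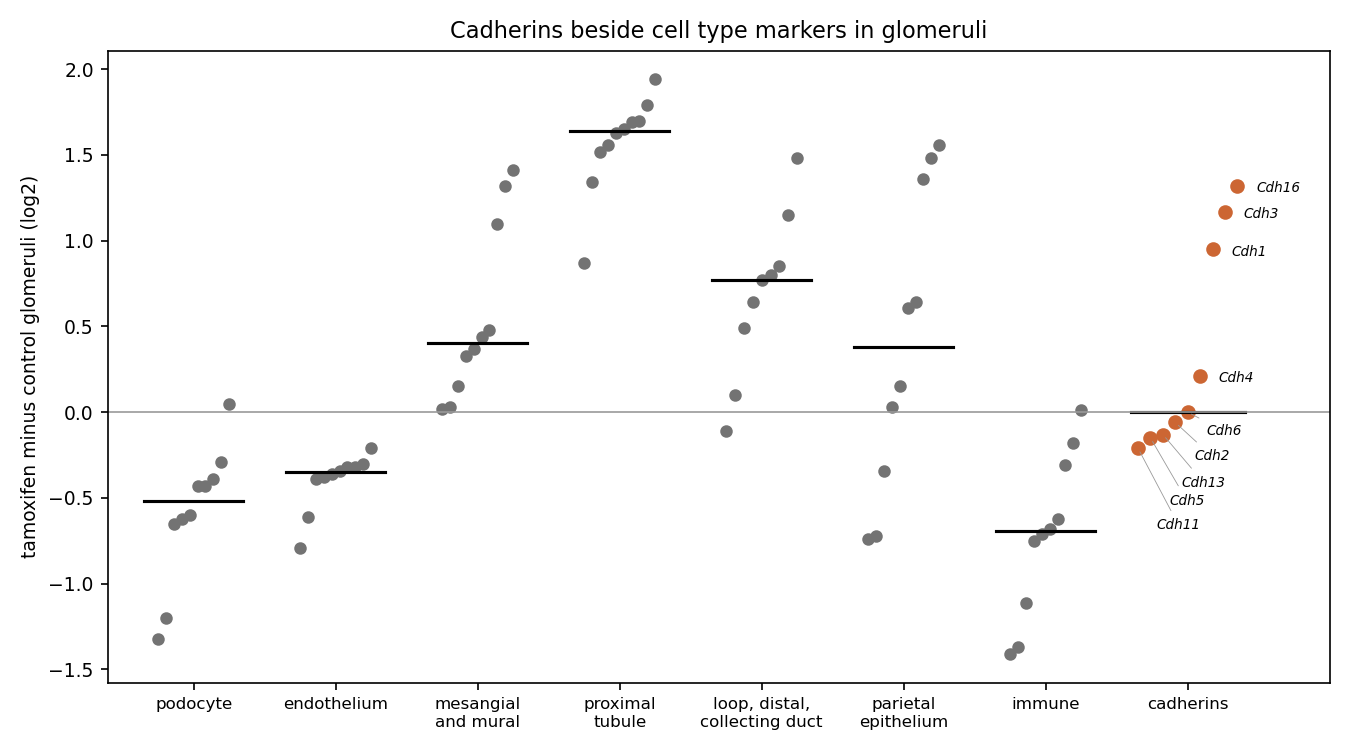
Difference in log2 signal between treated and control glomeruli for each tested marker gene (grey points, bars for list medians) and for the 9 cadherins (orange, named), by list. Proximal tubule markers centre on 1.64 and loop, distal and collecting duct markers on 0.77, while Cdh1, Cdh3 and Cdh16 lie at 0.95, 1.17 and 1.32 and the other 6 cadherins within 0.21 of 0.

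The Cdh1 call depended on the fit. It was lost with normexp background correction (0.82, adjusted p = 0.38), with a trended robust variance (0.073), with the glomerular arrays alone (0.27), and without control replicate 1 (0.10), control replicate 2 (0.053), tamoxifen replicate 1 (0.14), either day 4 tamoxifen array (0.065) or either day 7 mock array (0.051), while over all alternatives the difference stayed between 0.80 and 1.05 and its adjusted p between 0.011 and 0.44.

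Treated and mock podocyte cultures were compared with the same limit, outside the tissue. Cdh2, Cdh3, Cdh4 and Cdh6 were higher and Cdh11 lower on both treated arrays than on both mock arrays at day 4 and again at day 7. The shares of all genes that lay wholly apart were 29.2% higher and 21.4% lower at day 4, and 22.4% and 18.9% at day 7. No cadherin passed the test on either day alone: limma called 0 of 9 at day 4 beside 0.21% of all genes, and 0 of 9 at day 7 beside 0.972%. At an unadjusted p under 0.05 there were 3 of 9 at day 4 (Cdh2, Cdh4 and Cdh6, against 10.9% of all genes) and 4 of 9 at day 7 (with Cdh3, against 12.2%).

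Cdh6 had the largest differences. The day 4 cultures read 0.08 and 0.12 with mock and 1.16 and 1.61 with tamoxifen, a difference of 1.28 (SE 0.33, adjusted p = 0.19). The day 7 cultures read 0.29 and -0.31 against 0.95 and 1.26, a difference of 1.12 (SE 0.33, adjusted p = 0.19). Cdh2 read 3.38 and 2.99 with mock and 4.17 and 3.96 with tamoxifen at day 4 (0.88, SE 0.23, adjusted p = 0.20), and 3.34 and 2.85 against 4.02 and 4.05 at day 7 (0.94, SE 0.23, adjusted p = 0.13). Both genes were already higher in mock cultures than in glomeruli, and the treated cultures lay higher still.

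Cdh4 stood lower in mock cultures than in glomeruli, and its treated means lay between those of both. It read -2.64 and -2.42 with mock and -2.03 and -1.11 with tamoxifen at day 4 (0.96, SE 0.29, adjusted p = 0.26). At day 7 it read -2.48 and -2.74 against -1.98 and -1.53 (0.85, SE 0.29, adjusted p = 0.26). Its day 4 treated pair was the widest apart among these 4 genes. For Cdh3 the values were -1.16 and -1.35 against -0.49 and -0.81 at day 4 (0.61, SE 0.30, adjusted p = 0.52), and -1.35 and -2.0 against -0.74 and -1.07 at day 7 (0.77, SE 0.30, adjusted p = 0.34).

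Cdh11 was the cadherin on the low side, with 1.47 and 1.62 after mock treatment, 1.07 and 1.23 after tamoxifen at day 4, and 1.31 and 1.52 against 0.83 and 1.06 at day 7. Its differences of -0.39 and -0.47 did not pass (SE 0.36, adjusted p = 0.79 and 0.68). Cdh5 and Cdh13 overlapped between treated and mock on both days, and so did Cdh16. Treated Cdh16 read 0.98 and 1.5 at day 4 and 0.04 and 0.11 at day 7, with differences of 0.44 and -0.03 against mock. Treated Cdh5 read -2.40 and -3.28 at day 4 and -2.78 and -3.01 at day 7, while treated Cdh13 read -3.82 and -4.49, then -3.89 and -4.58. Cdh1 was below background throughout, so its culture response has no size.

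Averaging the day 4 and day 7 differences, a contrast added after the values were seen, uses 4 treated against 4 mock cultures. By it, 3 of 9 cadherins were called, all higher, beside 5.1% of all genes (2.84% higher): Cdh2 rose by 0.91 (SE 0.16, adjusted p = 0.022), Cdh4 by 0.91 (SE 0.20, adjusted p = 0.045) and Cdh6 by 1.20 (SE 0.23, adjusted p = 0.027), which are 1.88-fold, 1.87-fold and 2.30-fold. At an unadjusted p under 0.05 there were 4 of 9, against 20.7% of all genes. Cdh3 differed by 0.69 (SE 0.21, adjusted p = 0.11) and Cdh11 by -0.43 (SE 0.25, adjusted p = 0.38). All 4 treated cultures lay above all 4 mock cultures for Cdh2, Cdh3, Cdh4 and Cdh6, and below them for Cdh11, beside 11.1% and 7.65% of all genes.

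These calls were close to the threshold. Leaving out day 4 mock replicate 2, day 4 tamoxifen replicate 2, day 7 mock replicate 2 or either day 7 tamoxifen array left 0 of the 3 called, and leaving out day 4 mock replicate 1 or day 4 tamoxifen replicate 1 left 1. The other 5 fits left 2, Cdh2 and Cdh6. Cdh4 was the least stable, with its call lost in 11 of 12 such fits, those without a glomerular array included, and in 3 of 12 other settings (quantile normalization, no filter on dim probes and the culture arrays alone, adjusted p = 0.052 to 0.091). The differences then lay between 0.78 and 1.03 for Cdh2, 0.68 and 1.13 for Cdh4, and 1.05 and 1.35 for Cdh6. The second probes of Cdh2 and Cdh4 gave 0.80 and 1.1 for the mean of both days, on the same side as the probes used.

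**Figure D4:**
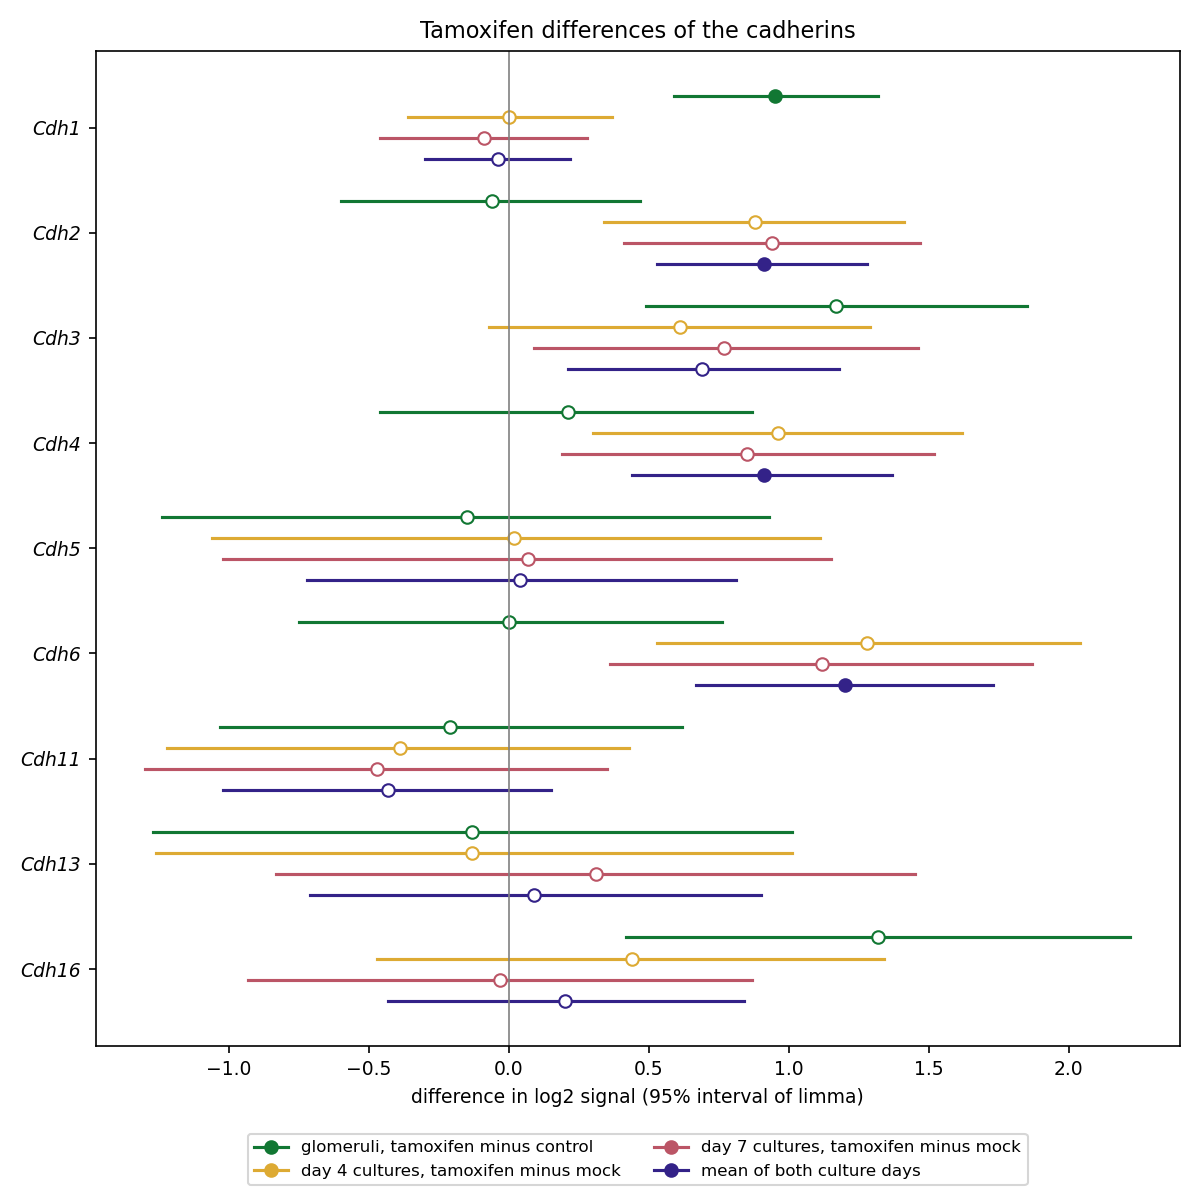
Tamoxifen difference in log2 signal of each cadherin in glomeruli, in day 4 cultures, in day 7 cultures and for the mean of both culture days, with the 95% interval of limma as a line and filled points for differences that passed the test. Cdh1 is filled in glomeruli (0.95), and Cdh2, Cdh4 and Cdh6 are filled for the mean of both days (0.91, 0.91 and 1.20).

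Markers of other cells in the cultures were compared by treatment too. The summed level of the parietal epithelial list was 28.6 to 44.6 in mock and 52.6 to 61.3 in treated cultures. Ncam1 and Cd24a gave the most signal to that sum, and at day 4 they differed by 0.83 and 0.20 without passing. Krt8 of the same list was not above background in any culture group. The list's called member at day 7, the tight junction gene Cldn1, fell by 1.95 on the log2 scale. Podocyte markers summed to 98.9 to 111.3 in mock and 86.7 to 104.3 in treated cultures, with all 10 of them well above background in each culture group. Of these, Clic5 was called lower at day 7 (-1.57, adjusted p = 0.033 by limma). Mesangial and mural markers summed to 434.6 to 499.8 in mock and 515.0 to 566.4 in treated cultures, a sum to which Acta2 and Tagln gave the most signal. Single members went the other way: the pericyte gene Rgs5 fell by 2.82 on the log2 scale at day 7 (adjusted p = 0.014), and the list's median difference was 0.13 at day 4 and -0.12 at day 7. The part of these lists in the cadherin values was not tested.

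The response in glomeruli was next set against the mean response in culture by testing the difference. Limma called 0 of 9 cadherins, beside 1.08% of all genes, with 4 of 9 at an unadjusted p under 0.05 (16.9% of all genes). Cdh1 came nearest, at 1.00 (SE 0.19, adjusted p = 0.057), with its culture values below background. Cdh2 differed by -0.97 (SE 0.28, adjusted p = 0.14), Cdh6 by -1.20 (SE 0.40, adjusted p = 0.18), and Cdh16 by 1.12 (SE 0.48, adjusted p = 0.29). A difference in response between tissue and culture was thus not shown for any cadherin.

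No difference between culture days passed the test. The day 7 response minus the day 4 response gave 0 called cadherins and 0 called genes by limma, with 0 cadherins and 0.9% of all genes at an unadjusted p under 0.05. For Cdh2, Cdh3, Cdh4 and Cdh6 that difference lay between -0.17 and 0.16, and the interval for Cdh6 reached from -1.24 to 0.90. Between mock cultures at day 7 and day 4 limma again called 0 of 9, beside 0.0328% of all genes, and no cadherin had an unadjusted p under 0.05 (6.48% of all genes). The means of the 8 cadherins detected in culture were lower at day 7, by 0.08 to 0.70 on the log2 scale, and the groups overlapped for each of them, while 29.9% of all genes lay apart.

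Partners, relatives and regulators of cadherins were read from 7 lists, 56 of whose 72 members were tested. The lists held other cadherins, catenins and actin adaptors, nectins, desmosomal genes, repressors of Cdh1, proteases, and turnover and trafficking genes. For tamoxifen in glomeruli, in day 4 cultures and in day 7 cultures, limma called 0 of the 56, with 6, 8 and 12 at an unadjusted p under 0.05, beside 18.3%, 10.9% and 12.2% of all genes. Catenins bind the cadherin tail, and none was called. Ctnnb1 (beta-catenin) had control glomeruli at 3.23 and 3.18, treated glomeruli at 2.98 and 3.07, mock cultures from 2.81 to 2.89 and treated cultures from 2.90 to 3.05. Ctnna1 and Ctnnd1 (alpha- and p120-catenin) differed by at most 0.21 in any of the 3 tamoxifen comparisons. Ctnna2, the alpha-catenin of neurons, was not above background in glomeruli and had differences of -0.87 at day 4 and -0.91 at day 7 (adjusted p = 0.61 and 0.54).

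Nectins are immunoglobulin-type adhesion molecules that sit beside cadherins in the junction. Nectin1 read 1.96 and 1.48 with mock and 2.99 and 2.81 with tamoxifen at day 4, and 1.93 and 1.45 against 3.06 and 3.02 at day 7. By the mean of both days it was 1 of 4 nectins called by limma (1.27, SE 0.22, adjusted p = 0.02), beside 2.84% of all genes called higher. The treated cultures lay wholly above mock for Nectin2 (0.55, adjusted p = 0.12) and Nectin4 (1.87, adjusted p = 0.07) as well, but not for Nectin3 (-0.10, adjusted p = 0.77). Of all genes, 11.1% lay wholly above mock. By the same mean limma called the scaffold gene Magi1 higher (1.07, SE 0.17, adjusted p = 0.015) and the phosphatase gene Ptpn1 lower (-0.40, SE 0.08, adjusted p = 0.026). That made 3 of 56, beside 5.1% of all genes, so the count is near the background. In glomeruli Nectin1 went from -0.39 and -1.0 to 0.55 and -0.20, a difference of 0.87 that did not pass (adjusted p = 0.19).

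**Figure D5:**
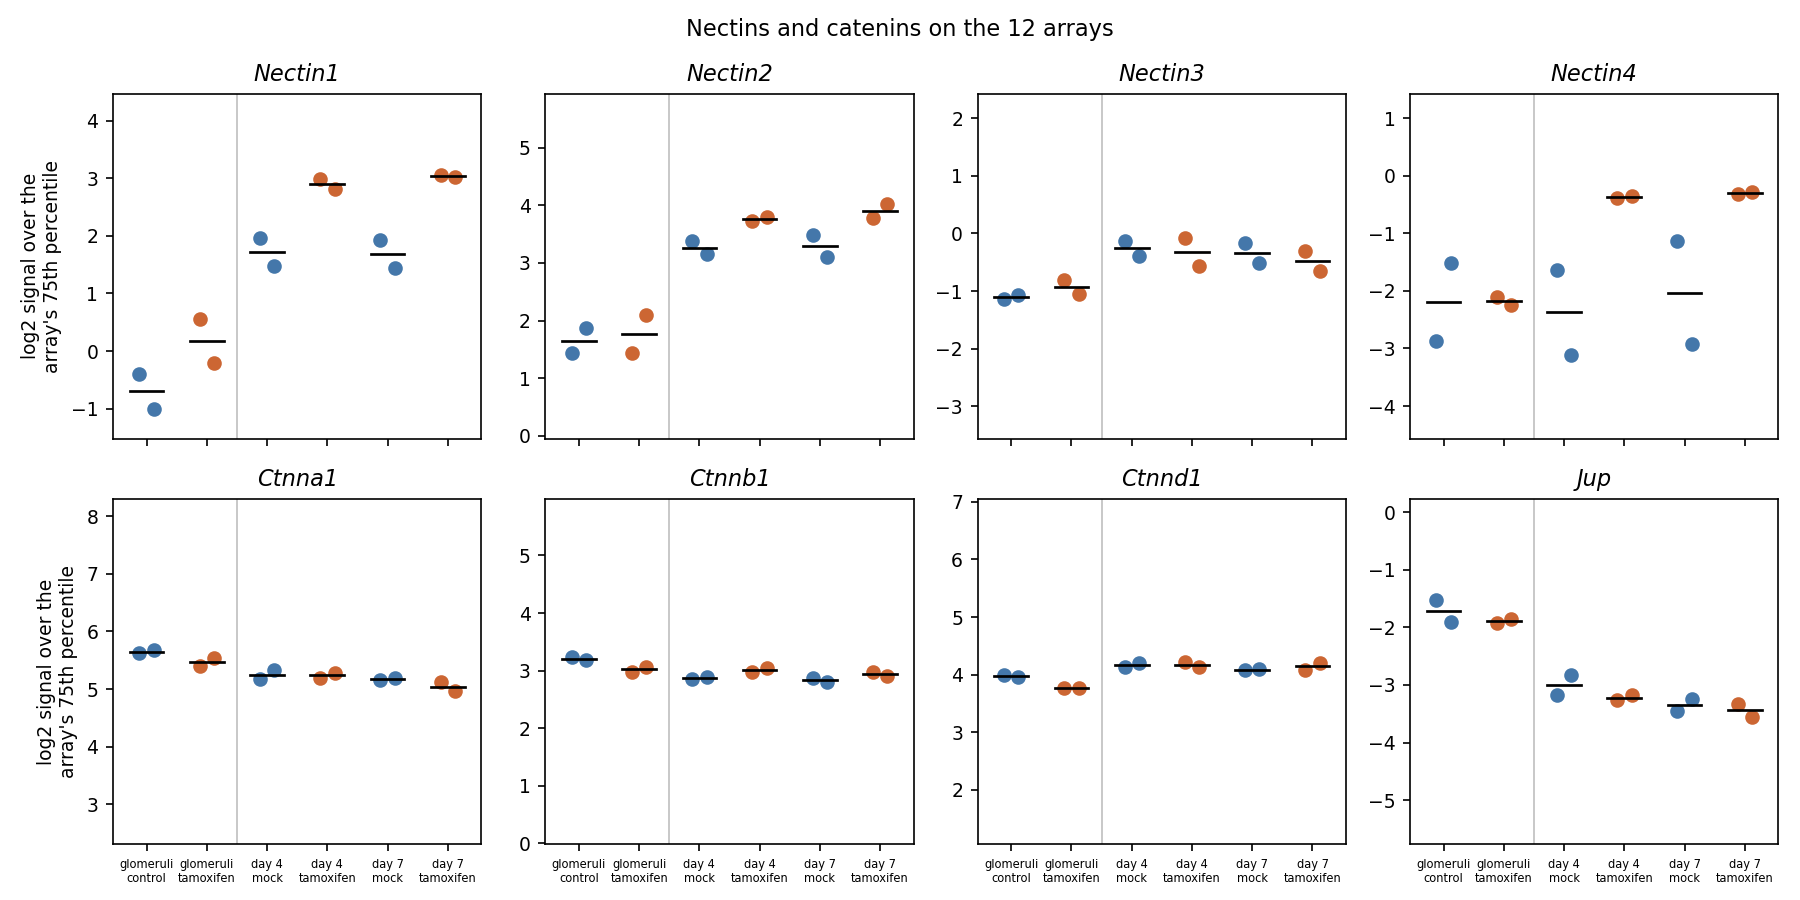
Signal of the 4 nectins and of 4 catenins on each of the 12 arrays, as log2 over the array's 75th percentile, in panels of equal height (6 log2 units), with blue points for control or mock samples, orange for tamoxifen and bars for group means. Nectin1, Nectin2 and Nectin4 lie higher in all treated than in all mock cultures, while for Ctnna1, Ctnnb1 and Ctnnd1 the tamoxifen differences are at most 0.21 in size.

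Between mock cultures and control glomeruli 36 of the 56 genes of these lists passed, 23 higher and 13 lower. That stood beside the 63.6% of all genes that did, so the count is near the background. Nectin1 (2.40), Nectin2 (1.63) and Nectin3 (0.80) were called higher. Jup, or plakoglobin, which serves both adherens junctions and desmosomes, was lower by mean and called at -1.46, and Dsp, the desmosomal linker desmoplakin, at -3.41. Ctnnb1 and Ctnna1 were called with small differences of -0.35 and -0.43. Among transcription factors known to repress Cdh1, 2 of 9 were called higher (Twist2 at 5.0 and Snai2 at 0.98) and 4 lower, including Twist1 at -3.05 and Zeb1 at -0.87, beside 37.6% of all genes called higher and 26% lower. In treated glomeruli 8 of these 9 had lower means than in controls (median -0.38 beside -0.05 for all genes). Limma called 0 of them, beside 2.62% of all genes. At an unadjusted p under 0.05 there were 2 of 9, beside 18.3% of all genes, so the count is near the background. Proteases known to cut cadherins from the surface had 3 of 9 called higher in mock cultures, a share below the 37.6% of all genes called higher: Mmp14 (1.80), Adam9 (1.32) and Adam10 (0.88).

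Of 14 other cadherins listed, 6 passed the detection filter. In mock cultures 3 of those were called higher than in control glomeruli, beside 37.6% of all genes: Cdh10 (2.04), Cdh12 (1.21) and Cdh8 (0.43). Cdh22, a type II cadherin of brain, was chosen here after its values were seen. At day 4 its mock cultures stood at -6.48 and -7.59 and its treated cultures at -3.68 and -4.41, then -4.78 and -7.87 against -1.92 and -4.12 at day 7. Neither day 4 mock array was well above background, so the day 4 difference is only bounded, at least 3.08-fold higher, and it did not pass (adjusted p = 0.33).

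The genes most like each cadherin over the 12 arrays were found by the root mean square difference of centred log2 values, as a description only, since all points share the split between glomeruli and cultures. Cdh5 was nearest to Afap1l1 (0.198), Smagp (0.22) and the endothelial receptor gene Robo4 (0.222). Cdh11 was nearest to Sox11 (0.244), Cdh2 to Pdlim1 (0.217), Cdh4 to Dok4 (0.186), Cdh3 to Prkg2 (0.257), and Cdh13 to Cdc42ep2 (0.23). Cdh16 was nearest to Pdzk1ip1 (0.33), then to Cyp2j5 (0.394) and Ocln (0.425), which encodes the tight junction protein occludin. For Cdh6 the nearest were Bag2 (0.295), the adhesion gene Ncam1 (0.311) and Wnt9a (0.313).

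By the RefSeq table, 6 of the 9 cadherin genes lie on chromosome 8, which also carries Foxc2. Cdh11 and Cdh5 are neighbours there with 0 protein-coding genes between them, and so are Cdh3 and Cdh1. From glomeruli to culture the neighbours went apart: Cdh11 rose and Cdh5 fell, and likewise Cdh3 rose and Cdh1 fell. With tamoxifen in glomeruli Cdh3 and Cdh1 lay on the same side, at 1.17 and 0.95. Cdh5 stood at -0.15 and Cdh11 at -0.21, but the second Cdh11 probe gave 0.06, so a shared side of these 2 depends on the probe. Only Cdh1 passed there. With tamoxifen in culture Cdh11 differed by -0.39 and -0.47, and Cdh5 by 0.02 and 0.07. The cadherin nearest to the floxed Foxc2 was Cdh13, with 30 protein-coding genes between, and its tamoxifen differences were -0.13 in glomeruli, -0.13 in day 4 cultures and 0.31 in day 7 cultures. The 3 cadherins called for the mean culture response lie on chromosomes 18 (Cdh2), 2 (Cdh4) and 15 (Cdh6).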

How the data were processed

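RNA of 12 samples was labelled with Cy3 and hybridised to one-colour Agilent arrays, per the labels' protocols. Per the file headers, the deposited scanner output comes from Agilent's Feature Extraction (version 11.5.1.1) and holds, for every spot, a linear intensity whose processed form is already background-subtracted. Values in the authors' deposited table are on a log2 scale and matched the log2 processed signal over each array's 75th percentile (r = 1) up to a constant of 0.094 to 0.121. Column medians were -4.142 to -3.815, and the constant's origin stays unknown. The number of the second floxed gene varies among the genotype labels, so Foxc2 was taken from the series title.

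The log2 processed signal minus the array's 75th percentile was used. Control spots were removed, as were 83 to 134 outlier spots on each array. No spot was saturated (0), and a probe's spots were averaged. Of 39429 probes, 26581 had 1 gene symbol (RefSeq, GRCm38.p6), 0 had several and 12848 none. A probe was kept if 2 or more of the 12 arrays had it well above background, and a gene took its brightest probe. A single limma model (limma 3.58.1, R 4.3.3) with 6 group means, 6 residual and 1.87 prior degrees of freedom gave all tests, with a call at 0.05 after Benjamini-Hochberg adjustment. The code was tested on simulated data. With 2 against 2 samples an exact test cannot go below p = 0.333, and precision is limited by how few arrays there are.

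The members and gene lists were chosen with earlier results of these data known. All 9 members were named, along with other listed genes called with tamoxifen in glomeruli or on either culture day, except the red blood cell markers, given as a count. The 3 genes most like a member were named for Cdh5, Cdh6 and Cdh16, and only the nearest for the others ranked. Further list members are examples chosen after their values were seen. Cdh1, detected on 4 arrays, was not ranked for likeness. The planned normexp correction used the median signal, since the files used here hold no mean signal. Alternatives changed the background correction, scaling, filter, probe choice, variance model, arrays fitted and replicate block, or left out 1 array. Protein sequences, and promoters of members other than Cdh6, were not analysed here.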

Additional observations from a re-analysis of the deposited data

How the results depend on the processing

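All 9 differences between mock cultures and control glomeruli kept their direction and call in every alternative that could test them, and Cdh1 could not be tested with detection on at least 6 arrays. Of 1702 recomputed single cadherin values, 1646 kept direction and call, 38 lost a call, 16 gained one and 2 reversed. In glomeruli the count of called cadherins, 1, became 0 with normexp (fitted either way), detection on 6 arrays, the trended robust variance and the glomerular arrays alone, and 0 to 1 without single arrays. The 399 called genes there became 5 (normexp), 4 (normexp by maximum likelihood), 749 (plain subtraction), 257 (no filter), 212 (detection on 6 arrays), 0 (glomerular arrays alone) and 79 to 494 without single arrays. At day 4, normexp called 5 cadherins and 5053 genes (4733 higher, 320 lower, against 14 and 18), and reversed Cdh13 to 1.01. Its maximum likelihood fit gave 5, 4774 and 1.00. The first percentile of the corrected signal was then 344.4 on day 4 tamoxifen replicate 1 against 55.2 to 105.8 on the others; the cause was not tested. Called genes at day 4 (32) became 115 (plain subtraction), 51 (quantile), 82 (trended robust variance), 18 (culture arrays alone) and 7 to 79 without single arrays. At day 7, 148 became 44 (normexp), 34 (maximum likelihood), 225 (plain subtraction), 39 (culture arrays alone) and 9 to 237 without single arrays. For the day 7 minus day 4 response 0 to 1 genes were called without single arrays. For the glomerular minus the culture response, plain subtraction and quantile normalization each called 1 cadherin, and the 164 genes became 0 (normexp, both fits), 465 (plain subtraction), 102 (no filter) and 6 to 367 without single arrays. For culture time, 5 genes became 0 (normexp, both fits, plain subtraction, trended robust variance, culture arrays alone), 3 (quantile), 10 (no filter), 2 (detection on 6 arrays) and 0 to 7 without single arrays. For the mean culture response, single arrays left out gave 0 to 2 cadherins and 227 to 926 genes. Median scaling moved the median of all genes between mock cultures and control glomeruli from 0.173 to 0.408, with 7151 higher and 3046 lower calls in place of 5727 and 3958. Deviations of same-numbered samples correlated at 0.21 in glomeruli, 0.51 at day 4 and 0.54 at day 7, over 2 pairs each. The labels do not say what a number marks, and 2 pairs are too few to settle whether the numbers pair the samples. With a replicate block, called cadherins were 2 in glomeruli (Cdh3 joined, adjusted p = 0.034 by limma), 1 at day 7 (Cdh3, 0.049) and 5 for the mean culture response, and called genes were 91 at day 4, 435 at day 7, 444 for the glomerular minus culture response, 0 for culture time and 1792 for the mean culture response. A slide block leaves the tamoxifen comparisons as they are, since each lies within a slide, and was not run separately. Normexp by maximum likelihood, plain subtraction and the mean culture response were chosen after seeing the data. Signals near background limit Cdh1 in culture.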
